A study of Mus musculus with 8 samples.

Results

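Transmitter synthesis and synaptic release were described here through 10 mouse genes, picked by name and found by their Ensembl identifiers among the 29639 genes of a table of RNA levels. All 10 were in the table, and all 10 were among the 13279 genes that reached 1 FPKM (fragments per kilobase of transcript, scaled to sequencing depth: a level per length) in at least 2 of its 4 columns. They were lower than wild type almost throughout in paternal knock-in embryos, were split into higher and lower members in maternal knock-in embryos, and in homozygous embryos ran from 62.0% (Gad1) to 109% (Syp) of the wild-type level, apart from Tac2, which was highest there.

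The RNA came from mouse embryos that differed at the promoter of Gtl2 (also called Meg3), a maternally expressed non-coding RNA gene of the imprinted Dlk1-Dio3 domain. Homozygous embryos (HOMO) carried an insertion of 3 polyadenylation cassettes, which stop transcription short, on both parental copies. Maternal knock-in embryos (MKI) carried it on the copy from the mother, paternal knock-in embryos (PKI) on the copy from the father, and wild-type embryos (WT) on neither. The insertion was made by Easi-CRISPR, a way of placing a long single-stranded donor in the zygote genome, and it is present in every cell of the embryo. The sample titles give stages E12.8 for HOMO, E12.7 for MKI, E12.6 for PKI and E12.5 for WT, while the design text has embryonic day 12.5 throughout. Strain, the number of founders and the number of embryos per sample were not stated in those sources. There are 8 labelled samples, 2 per genotype, but the table holds 1 column per genotype, so no value below has a replicate spread and no difference was tested. In such bulk RNA, fewer cells of a type and less RNA per cell cannot be told apart.

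A few facts of the series bear on the values. The domain microRNAs miR-127-3p and miR-379-5p had 794 and 257 RPM (small-RNA reads scaled to the same total in every column) in HOMO and 455 and 207 RPM in MKI, against 26139.5 and 6871 RPM in PKI and 26481 and 7654 RPM in WT, which is the split the genotype labels give. The MKI column stood apart: across tested genes its log2 levels had Pearson's r of 0.864 to 0.882 with the other columns, which had 0.961 to 0.975 among themselves. Kdm5d, Ddx3y, Uty and Eif2s3y, genes of the Y chromosome, lay at 7.12 to 29.7 FPKM in HOMO, MKI and PKI and were listed at 0 in WT, so embryo sex and genotype cannot be told apart in comparisons with WT; Syp, among the 10 genes, is X-linked. Markers of liver, red cells, epidermis, skeletal muscle, cartilage and neurons were above 0 in every column, so the RNA held many tissues. The sequencing depth behind the FPKM values is unknown.

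Neurons load small transmitters into vesicles with dedicated transporters and release them when calcium enters the terminal. Release needs SNARE proteins, which pull the vesicle and the plasma membrane together, and a calcium sensor on the vesicle. In mid-gestation embryos most central neurons are young, and transcripts of this machinery are only starting to accumulate.

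Promoter sequence was looked at because several of the genes shared a pattern across genotypes. RefSeq (GRCm38.p6) promoter entries were found for 9 of the 10 genes. In the 250 bases before each start site 5 short motifs were searched on both strands, and no motif overlapped another in these 9 windows. Shown are the 4 windows with the least common motifs, with the bases of the motif named for each in capitals. For Gad2, whose window lies within its RefSeq gene span, 30 bases are printed, chr2:22622156-22622185 on the plus strand, around the core of an RE1 element, the site bound by the repressor REST; 12 of 27025 promoters, or 0.0444%, held it. The Th window, chr7:142899996-142900245 on the minus strand, holds the cyclic AMP response element TGACGTCA 45 bases before the start site, found in 1.60% of promoters. The Stx1a window, chr5:135023232-135023481, and the Tac2 window, chr10:127724228-127724477, both on the plus strand, hold the E-box CAGCTG 33 and 22 bases before the start site. Anywhere in the 250 bases, 12.74% of promoters held it.
Gad2: gctgtggtAGCACCCTGGACAGcgcgttcc
Th: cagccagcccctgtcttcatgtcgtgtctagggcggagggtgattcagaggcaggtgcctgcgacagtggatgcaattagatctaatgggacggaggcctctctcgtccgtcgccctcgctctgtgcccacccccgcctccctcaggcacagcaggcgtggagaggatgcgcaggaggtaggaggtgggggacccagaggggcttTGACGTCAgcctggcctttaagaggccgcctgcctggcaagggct
Stx1a: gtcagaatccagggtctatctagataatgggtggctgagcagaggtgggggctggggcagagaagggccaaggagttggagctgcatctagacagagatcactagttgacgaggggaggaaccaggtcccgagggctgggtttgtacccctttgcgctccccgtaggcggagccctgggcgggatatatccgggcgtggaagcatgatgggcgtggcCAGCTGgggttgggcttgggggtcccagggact
Tac2: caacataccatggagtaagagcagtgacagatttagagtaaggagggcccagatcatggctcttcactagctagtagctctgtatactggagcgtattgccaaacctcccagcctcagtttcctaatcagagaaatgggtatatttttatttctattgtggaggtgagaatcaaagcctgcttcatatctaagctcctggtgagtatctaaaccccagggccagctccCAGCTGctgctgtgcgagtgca
The GC box GGGCGG was in the windows of Gad1, Slc17a6, Syt1, Syp, Stx1a and Th, 6 of 9 genes, beside 33.0% of all promoters. TATAAA was found for Gad1 and in 13.0% of all promoters. These matches are letters in a window and not measured binding sites. Stx1a and Tac2 share the E-box but not a pattern: as given below, Stx1a was lowest in MKI and highest in WT, whereas Tac2 was lowest in MKI and highest in HOMO.

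The enzymes of GABA synthesis were taken first. Gad1 (chromosome 2, 70561303 to 70602014, GRCm38.p6), which encodes glutamate decarboxylase 67, had 2.84 FPKM in HOMO, 3.51 in MKI, 2.55 in PKI and 4.59 in WT. WT was the highest column, and PKI, at 55.6% of the WT level, the lowest. Gad2 (chromosome 2, 22621015 to 22693877), which encodes the synaptic form glutamate decarboxylase 65, had 2.92 FPKM in HOMO, 5.98 in MKI, 2.27 in PKI and 3.86 in WT. Here MKI was the highest column, at 155% of WT, and PKI again the lowest, at 58.8%. The enzymes therefore parted in MKI: on the log2(FPKM + 0.5) scale, used for all differences below, MKI minus WT was -0.34 for Gad1 and 0.57 for Gad2. The ratio of Gad1 to Gad2 levels was 0.972 in HOMO, 0.587 in MKI, 1.13 in PKI and 1.19 in WT.

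Slc32a1 (chromosome 2, 158607260 to 158615747) encodes the vesicular transporter of GABA and glycine, the partner of both enzymes in inhibitory neurons. It had 2.57 FPKM in HOMO, 1.02 in MKI, 1.80 in PKI and 3.31 in WT. MKI was the lowest column, at 30.7% of WT. Its MKI minus WT difference of -1.33 was opposite in sign to that of Gad2. Per unit of Gad1 plus Gad2 level, Slc32a1 stood at 0.446 in HOMO, 0.107 in MKI, 0.373 in PKI and 0.392 in WT, so MKI alone was far from the others.

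Slc17a6 (chromosome 7, 51621830 to 51671126) encodes the vesicular glutamate transporter VGLUT2, carried by most excitatory neurons of the brainstem and spinal cord. It had 5.93 FPKM in HOMO, 10.4 in MKI, 4.97 in PKI and 7.29 in WT. The order of the columns was that of Gad2, with MKI highest and PKI lowest. The ratio of Gad1 plus Gad2 to Slc17a6 was 0.973 in HOMO, 0.916 in MKI and 0.969 in PKI, against 1.16 in WT. When Slc32a1 was set against Slc17a6 instead, the ratio was 0.433 in HOMO, 0.0980 in MKI, 0.362 in PKI and 0.454 in WT. In MKI the reading of inhibitory against excitatory transcripts thus depends on which GABA gene is used.

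Th (chromosome 7, 142892779 to 142899995) encodes tyrosine hydroxylase, which starts catecholamine synthesis in sympathetic and dopaminergic neurons. It was the lowest of the 10 genes in HOMO and PKI, with 1.39 FPKM in HOMO, 0.776 in MKI, 1.17 in PKI and 1.72 in WT. The Th columns ran in the same order as those of Slc32a1 and Stx1a, WT highest and MKI lowest. At levels this near the pseudocount of 0.5 the log2 scale understates folds.

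Of the SNARE genes, Snap25 (chromosome 2, 136713439 to 136782428) had 4.86 FPKM in HOMO, 11.7 in MKI, 3.80 in PKI and 6.98 in WT. Its product sits on the plasma membrane of the terminal, and its MKI level was 168% and its PKI level 54.4% of WT. Stx1a (chromosome 5, 135023482 to 135051100), which encodes syntaxin 1A, the membrane partner of Snap25 in the same complex, had 4.13 FPKM in HOMO, 1.28 in MKI, 3.60 in PKI and 5.26 in WT. The partners lay on opposite sides of WT in MKI, where Stx1a was at 24.3% of its WT level. The ratio of Stx1a to Snap25 was 0.849 in HOMO, 0.109 in MKI, 0.948 in PKI and 0.754 in WT.

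Syt1 (chromosome 10, 108497650 to 109010980) encodes the vesicle calcium sensor of fast release. Its levels were 4.74 FPKM in HOMO, 7.41 in MKI, 3.39 in PKI and 5.95 in WT, again with MKI highest and PKI lowest. Syp (chromosome X, 7638580 to 7653256) encodes synaptophysin, an abundant vesicle membrane protein, and had 5.98 FPKM in HOMO, 2.64 in MKI, 3.30 in PKI and 5.49 in WT. HOMO and WT were the high columns and MKI the low one. The ratio of Syp to Syt1 was 1.26 in HOMO, 0.356 in MKI, 0.974 in PKI and 0.924 in WT. Both proteins sit on the same vesicles, and their transcripts parted in MKI as those of Snap25 and Stx1a did.

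Tac2 (chromosome 10, 127724478 to 127731768) encodes the precursor of neurokinin B, a peptide stored in dense core vesicles. It had 5.10 FPKM in HOMO, 0.691 in MKI, 1.96 in PKI and 1.34 in WT. HOMO stood above every other column, at 379.9% of WT, whereas in MKI and WT Tac2 was the lowest of the 10 genes. The HOMO minus WT difference of 1.60 ranked 39 from the top among 13279 genes, HOMO minus PKI of 1.19 ranked 126 and HOMO minus MKI of 2.23 ranked 199. Tac1, which encodes substance P and neurokinin A, had no such difference: the ratio of Tac2 to Tac1 was 3.86 in HOMO, 0.555 in MKI, 1.34 in PKI and 0.851 in WT. The genes next to Tac2 did not share it. Within 100 kb, Stat6, Nab2, Nemp1 and Zbtb39 passed the filter, and their HOMO minus WT differences ran from -0.08 to 0.27. The receptor of neurokinin B, Tacr3, was below the filter. Around Th the only other gene measured within that distance was Ascl2, also below the filter.

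**Figure D1:**
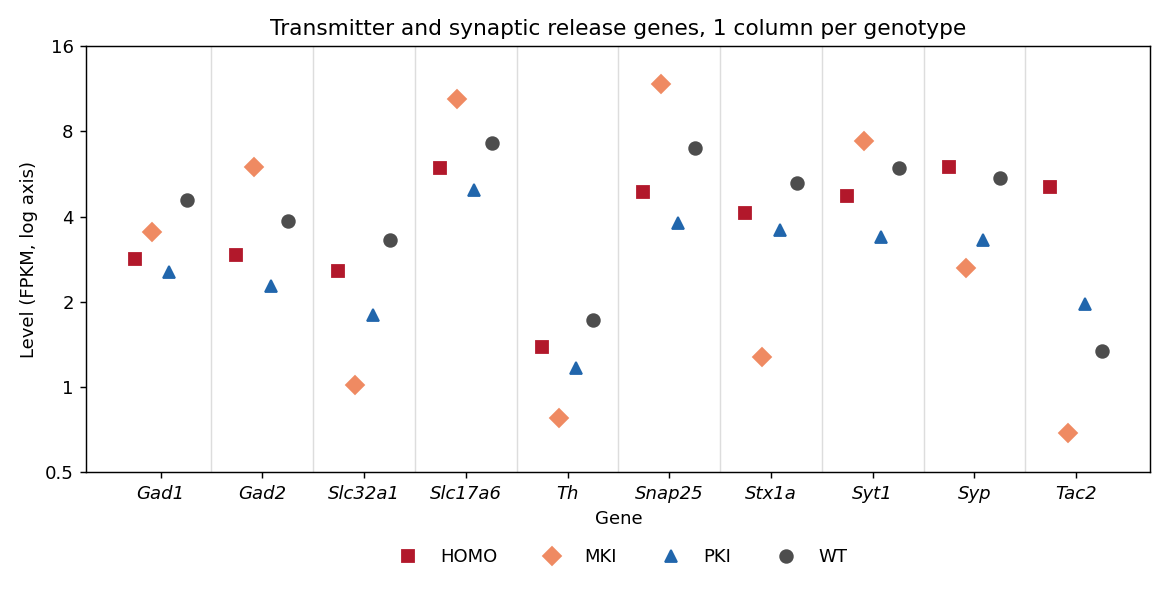
Level of each of the 10 genes (FPKM, log axis) in HOMO (squares), MKI (diamonds), PKI (triangles) and WT (circles), 1 point per deposited column. Diamonds lie above the circles for Gad2, Slc17a6, Snap25 and Syt1 and below them for the other genes; Tac2 is at 5.10 FPKM in HOMO against 1.34 in WT.

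The plot of levels by gene shows the order of the genes as well. In HOMO it ran Syp, Slc17a6, Tac2, Snap25, Syt1, Stx1a, Gad2, Gad1, Slc32a1, Th. In MKI it was Snap25, Slc17a6, Syt1, Gad2, Gad1, Syp, Stx1a, Slc32a1, Th, Tac2, and in PKI Slc17a6, Snap25, Stx1a, Syt1, Syp, Gad1, Gad2, Tac2, Slc32a1, Th. WT had Slc17a6, Snap25, Syt1, Syp, Stx1a, Gad1, Gad2, Slc32a1, Th, Tac2. Without replicates, neighbours in these orders cannot be said to differ. The summed level of the 10 genes was 40.5 FPKM in HOMO, 45.4 in MKI and 28.8 in PKI, against 45.8 in WT. MKI and WT had nearly the same sum from different genes.

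HOMO was then set against WT for the 10 genes together. Tac2 was more than 2-fold higher and no gene was more than 2-fold lower, that is 1 and 0 of 10, beside 0.67% and 0.783% of all tested genes (1.45% in either direction). At any size 2 genes, Tac2 and Syp, were higher and 8 lower, where 61.5% of all tested genes were lower. The median difference was -0.30, beside -0.06 over all tested genes. Gad1 had the lowest value, -0.61, followed by Snap25 at -0.48, and the other lower genes lay between -0.35 and -0.24. As a set they were shifted slightly down, with 1 gene far above.

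In MKI, 2 genes were more than 2-fold lower than WT, Stx1a at -1.70 and Slc32a1 at -1.33, and none was more than 2-fold higher. Among all tested genes 19.1% were 2-fold lower in MKI and 1.22% 2-fold higher, 20.3% together, so 2 of 10 is near the background. Quantile normalization moves that background: higher genes made up 6.01% of all 2-fold differences as deposited and 25.9% after it, and the all-gene median of -0.11 became 0.12. At any size 4 of the 10 genes were higher, Snap25 at 0.71, Gad2 at 0.57, Slc17a6 at 0.48 and Syt1 at 0.29, and 6 were lower, beside 55.4% lower of all tested genes. After quantile normalization Gad1 was also higher, at 0.08. The median of the 10 was -0.49, between Gad1 at -0.34 and Tac2 at -0.63, and stood for neither the higher nor the lower genes.

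Against WT, PKI gave the most even picture. None of the 10 genes was past 2-fold in either direction, beside 2.15% of all tested genes (0.7% higher and 1.45% lower). Higher genes made up 32.5% of those as deposited and 45.1% after quantile normalization. Yet 9 of 10 were lower, where 59.5% of all tested genes were, and 8 of them lay between -0.80 and -0.49. Snap25 had the lowest value, -0.80, and Th, at -0.42, the smallest shortfall. Tac2 alone was higher, at 0.42. The median was -0.66, beside -0.07 over all tested genes. All 3 comparisons with WT share the WT column.

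**Figure D2:**
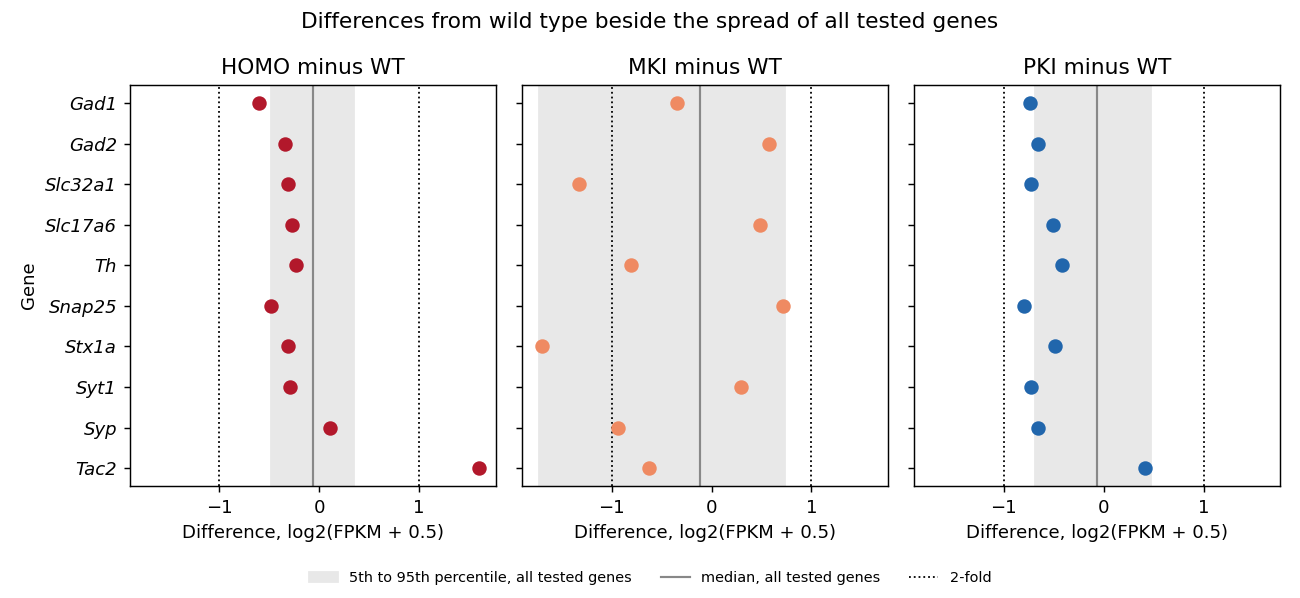
Difference from WT of each of the 10 genes on the log2(FPKM + 0.5) scale, in HOMO, MKI and PKI. The grey band leaves out the lowest and the highest 5% of tested genes, the grey line is their median and dotted lines mark 2-fold; the PKI points of 9 genes lie between -0.80 and -0.42, while the MKI points run from -1.70 to 0.71 inside a much wider band.

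The comparisons among insertions do not use the WT column. HOMO exceeded MKI by more than 2-fold for Tac2 (2.23), Stx1a (1.38), Syp (1.05) and Slc32a1 (1.02), and was more than 2-fold below it for Snap25 (-1.19). Syp and Slc32a1 lay under 2-fold with median scaling (0.99 and 0.97), trimmed mean or quantile scaling, a pseudocount of 1 or subtraction of the median of genes of like span (0.63 and 0.32). The 4 and 1 of 10 stand beside 19.7% and 3.64% of all tested genes (23.3% together), and higher genes made up 84.4% of all such differences as deposited and 65.6% after quantile normalization. At any size 5 genes were higher in HOMO than in MKI, beside 52.4% of tested genes. HOMO was above PKI for 10 of 10 genes, beside 51.1% of tested genes above and 48.9% below, with Tac2 past 2-fold at 1.19 where 1.55% of genes were, and 2.87% in either direction. Syp followed at 0.77, the other differences were 0.13 to 0.43, and the median was 0.31, beside 0.01 over all tested genes. MKI exceeded PKI by more than 2-fold for Snap25 (1.51), Gad2 (1.23) and Syt1 (1.02) and was below it by as much for Stx1a (-1.21) and Tac2 (-1.05), beside 2.55% and 16.6% of all tested genes. Syt1 lay under 2-fold with a pseudocount of 1 (0.94) and span subtraction (0.70), and Tac2 with these and with trimmed mean or quantile scaling (-0.996 to -0.35). Stx1a was at -0.99 with quantile normalization, whereas Slc17a6, at 0.99 as deposited, passed 2-fold with a pseudocount of 0.1 or any of the 3 scalings (1.04 to 1.15). At any size 5 of the 10 were lower in MKI than in PKI, as were 51.8% of tested genes. Higher genes were 13.4% of those MKI and PKI differences as deposited and 29.9% after quantile normalization.

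Each insertion can be read on both states of the other copy, in pairs of comparisons that share no column. For the maternal insertion, MKI minus WT and HOMO minus PKI were 0.57 and 0.31 for Gad2, 0.48 and 0.23 for Slc17a6, 0.71 and 0.32 for Snap25 and 0.29 and 0.43 for Syt1, positive in both, 4 of 10 beside 16.8% of all tested genes. They had opposite signs for the other 6 genes, near the 62.1% of all tested genes that did, with -1.33 and 0.42 for Slc32a1, -1.70 and 0.18 for Stx1a, -0.93 and 0.77 for Syp, -0.80 and 0.18 for Th, -0.63 and 1.19 for Tac2 and -0.34 and 0.13 for Gad1. For the paternal insertion, PKI minus WT and HOMO minus MKI were both negative for Gad1 (-0.74 and -0.26), Gad2 (-0.65 and -0.92), Slc17a6 (-0.51 and -0.76), Snap25 (-0.80 and -1.19) and Syt1 (-0.73 and -0.59), 5 of 10 beside 27.1% of all tested genes. Tac2 was positive in both, at 0.42 and 2.23. Slc32a1, Stx1a, Syp and Th were negative in PKI minus WT and positive in HOMO minus MKI, 4 of 10 beside 32.4% of all tested genes. No test of these differences was possible with 1 column each. The maternal and paternal readings use the same 4 columns, so they are not independent of each other.

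The genes that parted in MKI differ in length. Across 12333 tested genes with a RefSeq span, the MKI minus WT difference went with span, with Spearman's rho of 0.342, a description across genes that share libraries. From the shortest to the longest quintile of genes its median was -0.67, -0.38, -0.12, 0.11 and 0.14. Th, Tac2, Slc32a1, Syp and Stx1a span less than 30 kb, a limit set after their values were seen, and 5 of 5 were lower in MKI, between -1.70 and -0.63. Gad1, Slc17a6, Snap25, Gad2 and Syt1 span more, and 4 of 5 were higher in MKI, with values between -0.34 and 0.71. With the median of the same quintile of span subtracted, Stx1a kept a difference of -1.58, while Slc32a1 was at -0.66, Syp at -0.55, Th at -0.13 and Tac2 at 0.05. Snap25 then stood at 0.60, Gad2 at 0.47, Slc17a6 at 0.37 and Syt1 at 0.15. Gad1, the longer gene that was lower in MKI, was further below WT after the subtraction, at -0.45. In PKI the relation ran the other way, with rho of -0.279 and medians of 0.05, -0.02, -0.05, -0.12 and -0.20. It did not part the 10 genes: 4 of the 5 shorter genes and 5 of the 5 longer genes were lower in PKI, and with the quintile's median subtracted the 9 lower genes lay between -0.78 and -0.39. HOMO minus MKI and HOMO minus PKI also went with span, with rho of -0.359 and 0.146. The 5 longer genes are those that were negative in both paternal pairs, and 4 of them were positive in both maternal pairs. The shares of all tested genes given beside those counts take no account of span. The part of span in the MKI values and in these pairs was not tested.

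**Figure D3:**
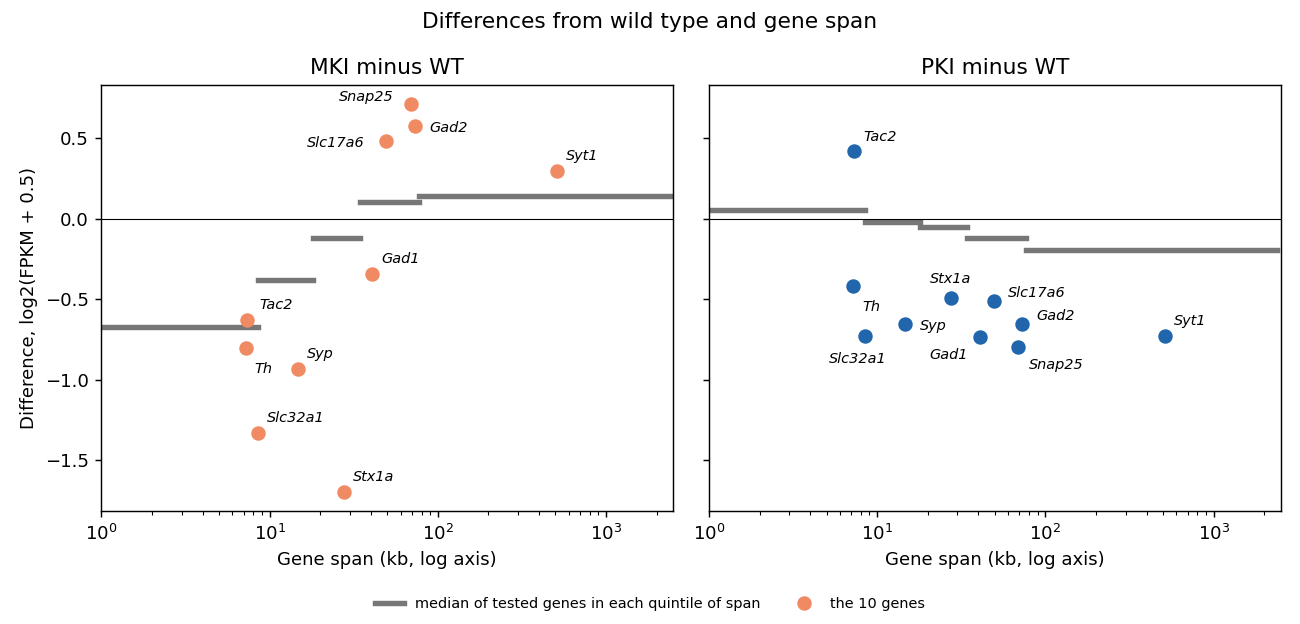
Difference from WT on the log2(FPKM + 0.5) scale against RefSeq gene span (kb, log axis) in MKI and PKI; bars are the median of all tested genes in each quintile of span and points are the 10 genes. In MKI the bars rise with span, from -0.67 in the shortest to 0.14 in the longest quintile, and the 5 shorter genes are all below 0; in PKI all points but Tac2 lie under the bars.

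General neuronal transcripts were compared next, to see how far the 10 genes moved with them. The pan-neuronal list holds 20 genes of structure, adhesion and RNA processing, all of which passed the filter. Its median difference from WT was -0.23 in HOMO, -0.37 in MKI and -0.72 in PKI. In PKI 20 of 20 were lower and 7 more than 2-fold, beside 59.5% and 1.45% of all tested genes. Among the 7 were the axonal adhesion genes Cntn2 (8.97 FPKM against 21.1 in WT) and L1cam (3.62 against 8.75). In MKI 4 of 20 were more than 2-fold lower, near the 19.1% of all tested genes, among them the neuronal tubulin Tubb3 (41.4 against 183), while the microtubule protein gene Dcx was higher (80.2 against 54.2). The geometric mean of FPKM + 0.5 over the list was 17.6 in HOMO, 15.5 in MKI and 12.2 in PKI, against 20.1 in WT. In the ratios that follow, a gene's FPKM, without the 0.5, was divided by this mean. Relative to it, Slc17a6 stood at 0.337 in HOMO, 0.668 in MKI, 0.408 in PKI and 0.362 in WT, and Gad2 at 0.166, 0.385, 0.186 and 0.191 in that order of columns. On this ratio 6 of the 10 genes were below WT in PKI and 4 above, where 9 were below it as deposited. The divisor was 12.2 in PKI against 20.1 in WT, which by construction raises the PKI ratio of any gene. The share of all tested genes below WT on this ratio was not computed. With the list's median difference subtracted instead, PKI minus WT had a median of 0.07 over the 10 genes. Tac2 in HOMO, at 0.290 against 0.0666 in WT, and Stx1a in MKI, at 0.0822 against 0.261 in WT, were still far from WT on the ratio to the geometric mean. So were Snap25 (0.756 against 0.346), Slc32a1 (0.0654 against 0.164) and Gad2 in MKI, and Tac2 in PKI (0.161 against 0.0666).

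Other genes of transmitter handling followed a similar course. Of 27 listed genes for synthesis, transport and breakdown 12 passed the filter, and their median difference from WT was -0.14 in HOMO, -0.48 in MKI and -0.48 in PKI. In PKI 11 of 12 were lower, 1 more than 2-fold, beside 59.5% and 1.45% of all tested genes. That gene, Ache, which encodes acetylcholinesterase, had 5.02 FPKM in HOMO, 0.827 in MKI, 1.32 in PKI and 4.67 in WT. In MKI 3 of 12 were more than 2-fold lower, beside 19.1% of all tested genes, among them Ache and Dbh (0.354 against 1.22 in WT), whose product turns dopamine into noradrenaline. Below the filter were Chat, Slc18a3 and Slc5a7 of the cholinergic path, Slc17a7 and Slc17a8, which encode the other vesicular glutamate transporters, and Slc6a2, Slc6a3 and Slc6a4, which encode the monoamine uptake carriers. Slc17a6 was thus the only vesicular glutamate transporter gene measured above the filter.

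Release machinery beyond the 10 genes was covered by 48 listed genes, 42 of which passed the filter. The median difference from WT was -0.10 in HOMO, -0.11 in MKI and -0.45 in PKI. In PKI 39 of 42 were lower and 1 more than 2-fold, beside 59.5% and 1.45% of all tested genes. The gene past 2-fold was Unc13a, a priming factor (1.03 FPKM against 2.58 in WT). In MKI 18 were higher and 24 lower, near the 55.4% lower of all tested genes. More than 2-fold lower in MKI were 4 of 42, a smaller share than the 19.1% of all tested genes, among them Syngr3 (0.471 against 2.78), Syngr1 (0.517 against 2.59) and Syt5 (0.578 against 2.18). Among the 4 with the highest mean level were Napa, an adaptor for SNARE recycling (29.2 FPKM in HOMO, 19.0 in MKI, 25.4 in PKI and 27.1 in WT), and Vamp2, the vesicle SNARE that pairs with Snap25 and Stx1a (23.4, 13.0, 15.6 and 20.5 in that order of columns). SNAREs and partners used by most cell types, 19 of 20 measured and all of those tested, did not show the PKI shift. Their median was -0.11 in HOMO, 0.00 in MKI and -0.07 in PKI, and 10 of 19 were lower in PKI, near the 59.5% of all tested genes. Stx5a, of the Golgi, was the single one past 2-fold, lower in MKI by a log2 difference of -1.20. The ratio of Snap25 to its widely used relative Snap23 was 0.496 in HOMO, 0.673 in MKI and 0.292 in PKI, against 0.561 in WT.

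Neuropeptides and dense core vesicle proteins gave 15 tested genes of 30 listed, with medians of -0.18 in HOMO, -0.25 in MKI and -0.40 in PKI. In PKI 13 of 15 were lower, beside 59.5% of all tested genes. None of the 15 tested genes was more than 2-fold higher in HOMO than in WT, beside 0.67% of all tested genes. Cck, below the filter, had 0.917 FPKM in HOMO, 0.065 in MKI, 0.768 in PKI and 0.179 in WT. Its HOMO minus WT difference was 1.06, in the same direction as that of Tac2. In MKI the convertase inhibitor precursor Pcsk1n (0.427 FPKM against 7.78 in WT), somatostatin, Sst (1.04 against 5.49), and Chga (0.925 against 3.08) were more than 2-fold lower, 3 of 15 beside 19.1% of all tested genes. Receptors for the transmitters and peptides gave 15 tested of 27 listed and lay the other way in MKI, where 13 of 15 were higher, beside 44.6% of all tested genes, with a median of 0.35, beside -0.17 in HOMO and -0.31 in PKI. The median MKI minus WT difference of all tested genes in the longest quintile of span was 0.14, and the share of 44.6% covers genes of every length. The part of span in the receptor values was not tested. Grik5 was the exception past 2-fold in MKI (6.02 against 17.9), and in PKI the glycine receptor gene Glra2 (0.510 against 1.63) was past it.

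Transcription factors that set transmitter identity were counted by lineage. For GABA 15 of 18 listed were tested, with medians of -0.11 in HOMO, -0.49 in MKI and -0.53 in PKI, and in MKI 3 of 15 were more than 2-fold lower, among them Lhx5 and Pax2, near the 19.1% of all tested genes. The lists overlap: Tal1, at -0.87 in PKI, is also counted among the erythroid genes below, and Gata3 among the catecholamine factors. In RNA of many tissues these medians cannot be assigned to neurons alone. For glutamate 14 of 16 were tested, with medians of -0.18 in HOMO, -0.17 in MKI and -0.41 in PKI. In MKI 4 of 14 were more than 2-fold lower, including Tlx3, Lmx1b and Neurog1, beside 19.1% of all tested genes. Neurog1 was also past 2-fold in PKI, at -1.17. Factors of catecholamine neurons, 12 of 13 tested, had medians of -0.15 in HOMO, -0.72 in MKI and -0.35 in PKI. Of these Pitx3 and Foxa2, of midbrain dopamine neurons, were more than 2-fold lower in MKI, 2 of 12 beside 19.1% of all tested genes. Ret, the receptor for GDNF family ligands, was more than 2-fold lower in PKI (1.29 against 3.10), where 1.45% of all tested genes were. None of these lists had a gene more than 2-fold from WT in HOMO, where only 1.45% of all tested genes were. REST and its partners, which hold neuronal genes silent outside neurons, had medians of -0.08 in HOMO, 0.08 in MKI and -0.03 in PKI, and Rest itself had 17.6 FPKM in HOMO, 19.2 in MKI, 18.9 in PKI and 19.3 in WT. In MKI 3 of the 10 genes of that list were more than 2-fold lower, beside the same 19.1%, Ctdsp1 (5.96 against 19.3 in WT), Ehmt2 (17.5 against 44.1) and Rcor2 (11.6 against 24.1).

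**Figure D4:**
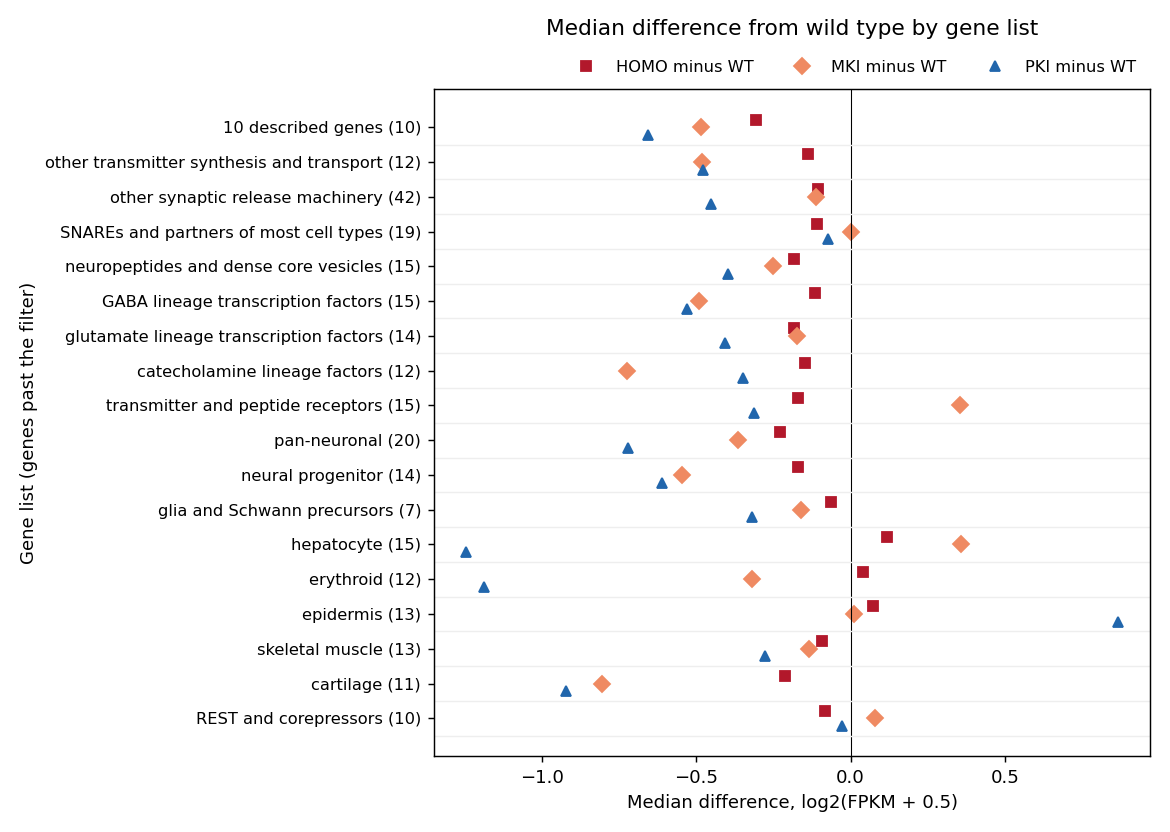
Median difference from WT on the log2(FPKM + 0.5) scale for the 10 genes and 17 other lists, with the number of genes past the filter in brackets, in HOMO (squares), MKI (diamonds) and PKI (triangles). In PKI the neuronal lists lie between -0.72 and -0.31, hepatocyte and erythroid lists near -1.2 and the epidermis list at 0.87.

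Markers of other tissues moved in the same columns, as the plot of medians by list shows. Of all tested genes, 59.5% were lower in PKI than in WT, 40.5% higher and 1.45% more than 2-fold lower. In PKI 15 of 15 hepatocyte genes were lower than WT and 11 more than 2-fold, with a median of -1.24. Their summed level was 940.2 FPKM in HOMO, 1295 in MKI, 276 in PKI and 754 in WT. Erythroid genes had a PKI median of -1.19, 12 of 12 lower, and sums of 189 in HOMO, 149 in MKI, 83.6 in PKI and 164 in WT. Epidermis genes were on the other side, with a PKI median of 0.87, 12 of 13 higher, and sums of 75.7 in HOMO, 65.2 in MKI, 126 in PKI and 71.6 in WT. Cartilage had a PKI median of -0.92 (11 of 11 lower) and skeletal muscle -0.28 (10 of 13 lower, nearer the 59.5% of all tested genes). Their summed levels were 149.6 and 291 in HOMO, 97.2 and 247 in MKI, 91.7 and 240.4 in PKI and 166 and 281 in WT. The PKI column therefore differed from WT in the balance of tissue markers, and the part of that balance in the values of the 10 genes was not tested. HOMO medians of the same 5 lists were 0.12, 0.04, 0.07, -0.21 and -0.09, and MKI medians 0.36, -0.32, 0.01, -0.80 and -0.14.

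Within the nervous system, neural progenitor genes had medians of -0.17 in HOMO, -0.55 in MKI and -0.61 in PKI. Of these, 13 of 14 were lower in PKI, beside 59.5% of all tested genes. Sox2, which maintains progenitors, had 0.734 FPKM in HOMO, 11.1 in MKI, 3.21 in PKI and 9.51 in WT, the single gene of that list past 2-fold in HOMO. Glia and Schwann cell precursors, 7 of 11 tested, had medians of -0.06 in HOMO, -0.16 in MKI and -0.32 in PKI. All 7 were lower in PKI, beside the same 59.5%. Sox10 was at 0.928 FPKM in MKI against 4.75 in WT.

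The small-RNA table gave a separate readout of neural tissue, from microRNAs chosen after their values were seen. miR-9-5p, of neural progenitors and neurons, had 41432 RPM in HOMO, 42062 in MKI, 37132 in PKI and 39089.6 in WT, and did not separate the columns. miR-218-5p, of motor neurons, had 11588 RPM in HOMO, 10619.8 in MKI, 7843 in PKI and 11649 in WT. miR-128-3p, a neuronal microRNA, had 1968 in HOMO, 1086 in MKI, 938 in PKI and 1569 in WT. PKI was the lowest column for these, and also for miR-153-3p (89.8 in HOMO, 104 in MKI, 48.5 in PKI and 77.8 in WT). It was not the lowest for miR-124-3p (56.5 in HOMO, 36.5 in MKI, 41.8 in PKI and 37.0 in WT) or miR-132-3p (54.5, 24.8, 26.0 and 28.3 in that order). miR-7a-5p was highest in MKI (21513 in HOMO, 35987 in MKI, 18044 in PKI and 18839.7 in WT), and miR-137-3p was too (38.0, 46.5, 28.2 and 30.1).

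Genes with a course like that of the 10 were looked up over the 4 columns. The median centred log2 level of the 10 genes was 0.01 in HOMO, -0.18 in MKI, -0.30 in PKI and 0.27 in WT. Nearest to it by root mean square distance were Fah (0.058), Pde4a (0.061), Meaf6 (0.062), Shc3 (0.063) and Rgs8 (0.063). The likeness rests on 4 values per gene.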

How the data were processed

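Gene levels were compared among mouse embryos of 4 genotypes (8 labelled samples, 2 per genotype; 1 column per genotype in each table). The authors deposited gene levels that were taken as FPKM, because the submitters' processing notes name HISAT2 2.0.4 and StringTie 1.3.4d on GRCm38 (with cutadapt 1.9) and the values are not whole. Per the labels' protocols, RNA was selected with oligo(dT), marked by dUTP and read as paired ends. The authors deposited small-RNA levels as RPM. No source used here gives the annotation release or how samples were combined into columns. FPKM values are relative, so a column's values also move with its most abundant genes.

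From these values, 22036 of the 29639 genes had Ensembl identifiers and 22022 were matched to symbols; the other 7603 are assembled genes, and values of 40 rows sharing 20 symbols were summed. Genes with 1 FPKM or more in 2 columns were kept (13279). Differences are of log2(FPKM + 0.5), computed in Python 3.11.15 with pandas 2.3.3, numpy 2.4.6 and scipy 1.17.1, and drawn with matplotlib 3.10.9; this understates folds of low genes. A model across genes had been planned, but 1 column per genotype leaves no spread to estimate, so counts past 2-fold are given beside those of all genes, with no p-values. All 6 pairs of columns were compared. Of each of 17 other lists the text could name the 4 most abundant genes and the 3 with the largest difference past 2-fold per comparison, and it names some of these; other genes named, among them those below the filter, were chosen after their values were seen. The members and lists were chosen with earlier results of these data known. The 2-fold calls and the scalings were run on simulated data, with added changes well past 2-fold. That run did not cover the span subtraction, list medians, ratios, motif search or likeness. The long non-coding table was not used. Values of some listed genes are not reported here.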

Additional observations from a re-analysis of the deposited data

Results flagged for a closer look

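Some genes differed in sign between the backgrounds in which an insertion was read; each value is a log2(FPKM + 0.5) difference between single columns that share none with its partner, and the difference between the backgrounds was not tested. For the maternal insertion, MKI minus WT and HOMO minus PKI were -1.33 and 0.42 for Slc32a1, -1.70 and 0.18 for Stx1a, and -0.63 and 1.19 for Tac2. For the paternal insertion, PKI minus WT and HOMO minus MKI were -0.73 and 1.02 for Slc32a1, -0.66 and 1.05 for Syp, and -0.49 and 1.38 for Stx1a. Both sets of pairs use the same 4 columns, and the difference between backgrounds is by construction the same for either insertion. They are not 2 separate findings. Every pair includes the MKI column, which stood apart, and these genes all span less than 30 kb. With the median of the same span quintile subtracted, Tac2 in MKI minus WT was 0.05, so its pair no longer had opposite signs. The other pairs listed here kept them.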

How the results depend on the processing

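No paired analysis was possible because each genotype has 1 column and the columns carry no replicate number; leaving out a replicate in turn was likewise not possible. Depth is unknown, and so is the precision of levels near 1 FPKM (Th, Tac2, Slc32a1 in MKI).

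The lower values of 9 of 10 genes in PKI and of 8 of 10 in HOMO against WT, and the higher values of 10 of 10 in HOMO against PKI, kept their direction with a pseudocount of 0.1 or 1, with median, trimmed mean and quantile scaling, and with the median of the same quintile of gene span subtracted (added after seeing the data). A filter of 5 FPKM kept 4 of the 10 genes; it left 1 gene 2-fold higher in HOMO against MKI, and 0 in HOMO against PKI, in HOMO against WT, lower in MKI against PKI and lower in MKI against WT, and gave medians of -0.68 (HOMO against MKI), 1.01 (MKI against PKI) and 0.39 (MKI against WT). The 4 genes 2-fold higher in HOMO against MKI became 2 with span subtraction, median, trimmed mean or quantile scaling, or a pseudocount of 1; the 1 lower became 2 with quantile or trimmed mean scaling or a pseudocount of 0.1. The 2 lower in MKI against PKI became 1 with span subtraction, trimmed mean scaling or a pseudocount of 1, and 0 with quantile normalization. The 2 lower in MKI against WT became 1 with span subtraction (Slc32a1 at -0.66) and 4 with a pseudocount of 0.1, where Syp (-1.03) and Th (-1.06) passed 2-fold. The median in HOMO against MKI became -0.021 with the pan-neuronal median subtracted, -0.11 with span subtraction, -0.082 with quantile normalization and -0.26 without Tac2. With the pan-neuronal median subtracted, medians were -0.24 in HOMO against PKI, -0.40 in MKI against PKI and 0.065 in PKI against WT. Except for what the steps' construction shows (fewer genes past a filter), the cause was not tested. Single signs that changed with span subtraction were Tac2 in MKI against WT (0.05), Th in HOMO against MKI (-0.14) and, in MKI against PKI, Slc32a1 (0.09), Syp (0.07) and Th (0.31); with quantile normalization Gad1 in MKI against WT was 0.08 and Syp in MKI against PKI 0.02. Over all genes, 2-fold counts ranged from 86 to 580 higher and 1657 to 2916 lower in MKI against WT, 48 to 154 and 79 to 349 in PKI against WT, 45 to 161 and 40 to 184 in HOMO against WT, 1825 to 2998 and 303 to 1026 in HOMO against MKI, 87 to 327 and 97 to 261 in HOMO against PKI, and 170 to 705 and 1596 to 2535 in MKI against PKI.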
